A study of Mus musculus with 6 samples.

Results

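The genes described here are the cytosolic heat shock proteins and their regulator in mouse liver. They are 10 named genes (Hsf1, Hspa1a, Hspa1b, Hspa8, Hsp90aa1, Hsp90ab1, Hsph1, Hspb1, Hspb8 and Dnajb1), of 24239 gene symbols on the array. They were chosen by name, and every non-control probe whose gene symbol was one of these names was taken. This gave 12 probes of 55681 for 9 genes. No probe carried the symbol Hspa1b, and that gene was not analysed here.

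Both groups were B6C3F1 male mice aged 7 weeks, and B6C3F1 is a hybrid strain often used in carcinogenicity tests. The 3 TCE mice were gavaged daily for 5 days with trichloroethylene, an industrial solvent, at 1000 mg/kg b.w. per dose, and the 3 control mice were gavaged with the corn oil vehicle. The paper states that all mice were killed within hours of the last dose. Effects of the last dose and of the repeated dosing can therefore not be told apart. Whole liver RNA of each mouse was hybridised in 1 colour (Cy3) to 1 Agilent array, and no animals were pooled. Levels are given below as log2 of the background-subtracted intensity after quantile normalization, so that a difference of 1 is a 2-fold change. Signals of different probes are not on a common scale, and each probe is compared only with itself between mice.

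Heat shock proteins are molecular chaperones, which bind unfolded or partly folded proteins and help them to fold, refold or be degraded. In an unstressed cell the transcription factor HSF1 is held inactive by chaperones. When unfolded proteins accumulate, HSF1 is released, forms trimers and binds heat shock elements, which are inverted repeats of the short unit GAA, in the promoters of chaperone genes. Some chaperone genes, such as Hspa1a and Hspb1, are strongly inducible, whereas others, such as Hspa8 and Hsp90ab1, are abundant in unstressed tissue. The liver makes most plasma proteins and has a high demand for folding.

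The promoter sequences of RefSeq (GRCm38.p6, 250 bases before to 50 bases after each transcription start) were searched for the inverted repeats GAANNTTC and TTCNNGAA, each of which reads the same on both strands, and for 3 such units in a row (GAANNTTC continued by NNGAA, both strands, which overlaps the shorter ones). The promoter table held 6 of the 10 genes, namely Hspa1a, Hspa1b, Hsph1, Hspb1, Hspb8 and Dnajb1. GAANNTTC was found in 5 of these 6 genes and in 9.04% of 27025 genes with a promoter in the table. The 5 include both Hspa1a and its neighbouring copy Hspa1b, which was not measured. TTCNNGAA was found in 1 of the 6 and in 9.6% of all genes. The 3-unit repeat was found in Hsph1 and in 0.662% of all genes. Dnajb1 held none of them in this window. A match is a run of letters and not evidence that HSF1 binds there.

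The sequences of 4 genes are shown because they carry these matches and because 3 of the 4, Hspa1a, Hspb1 and Hspb8, had the largest differences between the groups. The members absent from the promoter table, Hsf1, Hspa8, Hsp90aa1 and Hsp90ab1, were those with differences below 0. All measured members in the table had differences above 0. The matches can therefore not be compared with the direction of the difference. Each is written 5′ to 3′ on the strand of the gene, with the matched letters in capitals. The first 2 are the 250 bases before the start site, and the last 2 are windows of 30 bases around a match that lies after the start site.
Hspa1a, chr17:34972157-34972406, minus strand: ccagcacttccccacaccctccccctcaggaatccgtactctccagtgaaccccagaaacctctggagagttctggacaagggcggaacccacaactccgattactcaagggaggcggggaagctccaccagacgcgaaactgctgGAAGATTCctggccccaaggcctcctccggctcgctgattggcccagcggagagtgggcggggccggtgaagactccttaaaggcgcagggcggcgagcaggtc
Hspb1, chr5:135887669-135887918, plus strand: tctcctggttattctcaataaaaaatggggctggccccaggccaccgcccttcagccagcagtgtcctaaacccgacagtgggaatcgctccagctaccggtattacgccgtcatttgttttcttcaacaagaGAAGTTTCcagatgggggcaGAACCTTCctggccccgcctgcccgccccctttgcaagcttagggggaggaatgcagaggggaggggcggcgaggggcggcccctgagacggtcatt
Hspb8, chr5:116422844-116422873, minus strand: agaagccaggaGAAGTTTCtaggctcgcga
Hsph1, chr5:149636287-149636316, minus strand: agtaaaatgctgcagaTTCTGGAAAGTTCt

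In Hspa1a the match lay at bases -104 to -97 from the start site. Hspb1 held a pair of matches, at -117 to -110 and at -97 to -90. In Hspb8 the match lay at bases 3 to 10 after the start, and in Hsph1 the 3-unit repeat lay at 37 to 49, counted from the first of its 2 start sites in the table. Hsph1 also held TTCTCGAA before that start, at -33 to -26. The 250 bases before the start of Hspa1a and of its neighbouring copy Hspa1b were identical at 247 positions (98.8%), and their start sites lie 12918 bases apart. How much Hspa1b transcript the Hspa1a probe also captured was not tested.

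All 12 probes were well above background on all 6 arrays. None was saturated. The threshold used was an adjusted p of 0.05 or less together with a change of 2-fold or more, by limma with Benjamini-Hochberg adjustment over 22739 detected probes. Where a gene had several probes, the brightest stood for it.

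No heat shock gene passed this threshold, against 1.73% of the 13291 genes tested, and none had an adjusted p of 0.05 or less, against 2.39%. At an unadjusted p of 0.05 or less, 3 of the 9 measured genes were past and all 3 were higher in TCE mice (Hspa1a, Hspb1 and Hspb8), while 19.1% of all genes were past, 12% as higher and 7.11% as lower. The same 3 genes had TCE mice that were all above the control mice, as did 17.1% of all genes. No heat shock gene had TCE mice that were all below the control mice, as did 10.8% of all genes. The fitted difference was above 0 in 5 genes and below 0 in 4, with a median of 0.31 on the log2 scale, and the median of all genes was 0.02. With 9 genes these counts describe the genes themselves and do not set them apart from other genes.

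**Figure D1:**
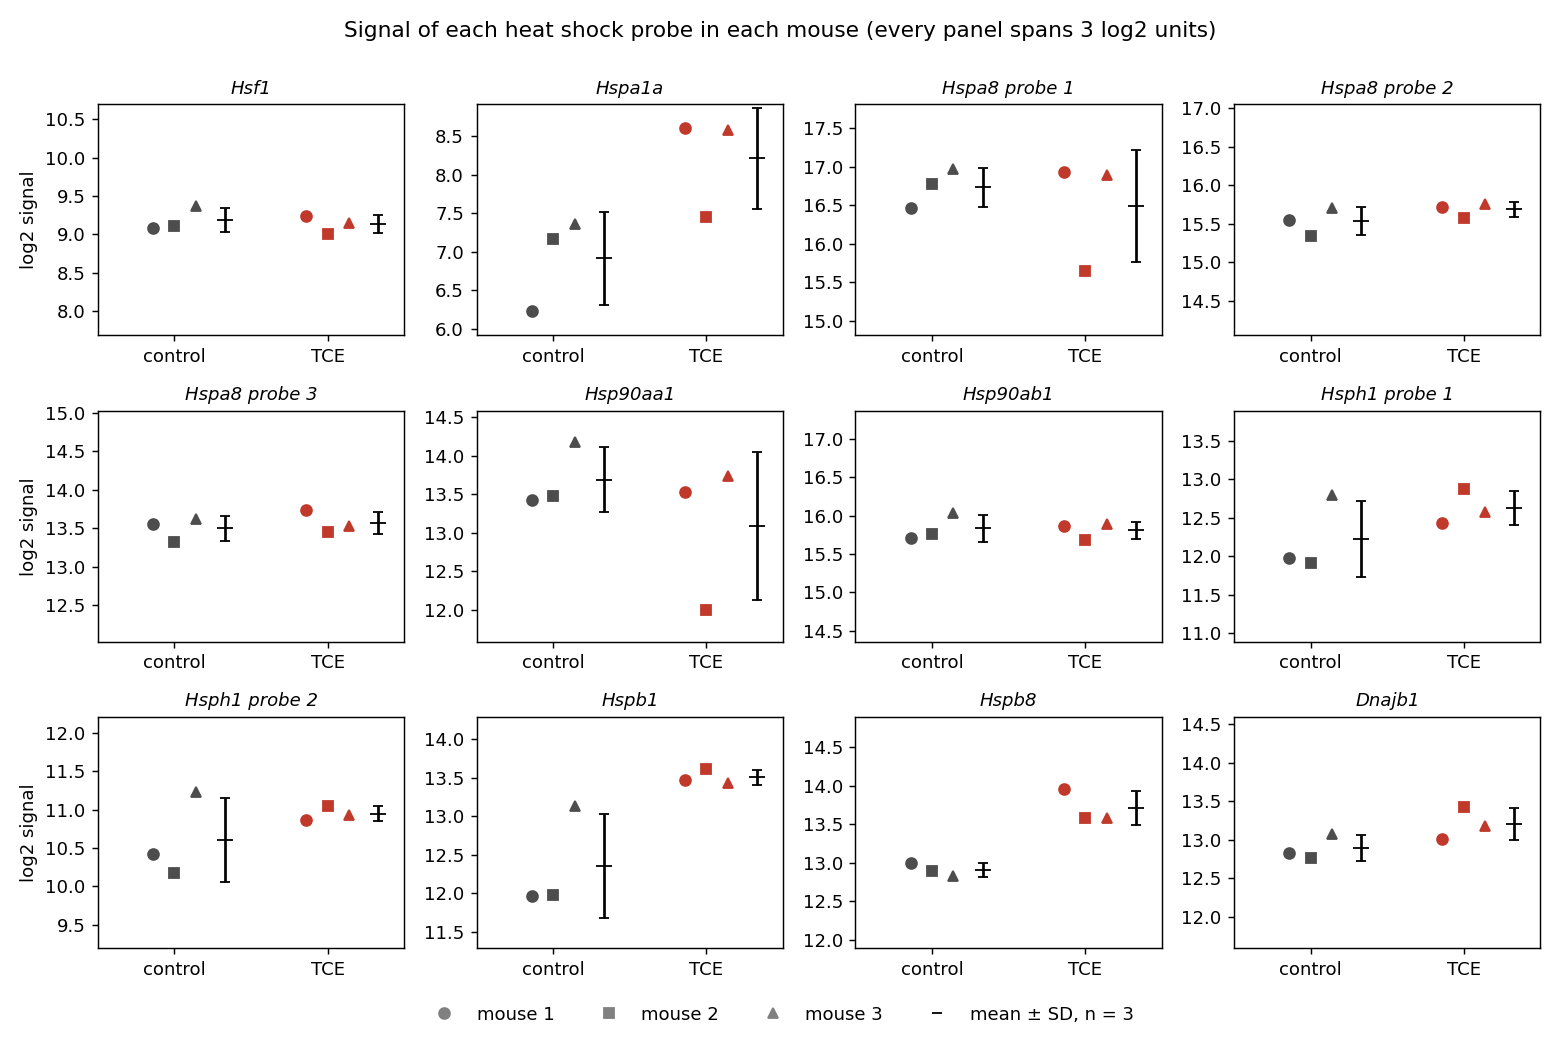
Level of the 12 heat shock probes in each of the 6 mice, with 1 panel per probe and the level in log2 normalized intensity on the vertical axis. Points are single mice (circle, square and triangle for mice 1, 2 and 3), and each bar beside them is the mean ± SD of 3 mice. The TCE mice lie above all control mice in Hspa1a, Hspb1 and Hspb8 and overlap them in the other 6 genes.

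Some facts about the arrays bear on these values. Control mouse 1 was on a slide of its own and the other 5 mice shared a second slide. Across detected probes, pairs of control mice had Pearson correlations of 0.987 to 0.990, pairs of TCE mice 0.978 to 0.987 and pairs from both groups 0.971 to 0.982. TCE mouse 2 stood apart, since 2.21% of probes lay there at least 1 log2 unit below all 5 other mice, compared with 0.18% to 0.629% in the other mice. The 5 hepatocyte markers (Alb, Apoa1, Ttr, Cps1 and Tat) were well above background in every mouse, and their summed level was 19.67 to 19.71 (log2) in control mice and 19.47 to 19.71 in TCE mice. Singly, the groups did not overlap in Cps1 (-0.42, adjusted p by limma 0.352), Apoa1 (-0.31, adjusted p 0.215) and Tat (0.36, adjusted p 0.256). They overlapped in Alb (-0.18) and Ttr (0.14). The summed erythroid markers were 16.23 to 16.76 in control mice and 14.87 to 16.48 in TCE mice, with the lowest value in TCE mouse 2. Of these, Alas2, the erythroid enzyme of heme synthesis, was lower in all TCE mice than in all control mice, with a fall of less than 2-fold (-0.91, adjusted p by limma 0.0215). The stellate marker Lrat was also lower in all TCE mice (-1.35, adjusted p by limma 0.0677). The other stellate markers differed by -1.34 (Reln, groups overlapping), -0.25 (Colec11), -0.05 (Des) and 0.01 (Dcn). The summed stellate markers were 14.65 to 15.24 in control mice and 14.83 to 15.08 in TCE mice, so that the groups overlapped. None of the 9 marker lists held a gene past both criteria of the threshold, and the part of these cells in the heat shock values was not tested. In whole liver, fewer cells of a type and less RNA per cell cannot be told apart.

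Hsf1, the transcription factor that drives the heat shock response, was at a similar level in both groups. Its probe (chr15:76331320-76331379, mm9) read 9.09, 9.11 and 9.37 in the control mice and 9.24, 9.01 and 9.15 in the TCE mice. The groups overlapped, and TCE mouse 2 was the lowest of all. The difference was -0.05 ± 0.13 (log2, SE, n = 3 per group) with a 95% interval of -0.37 to 0.27 and an adjusted p by limma of 0.874. A 2-fold change in either direction lies outside this interval. A transcript level does not report the activity of HSF1, which is set after translation.

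The cytosolic HSP70 proteins bind short hydrophobic stretches of client proteins and release them with the use of ATP. Among the members, 1 inducible and 1 constitutive HSP70 gene were measured, and other genes of the family are given further below. Hspa1a encodes the inducible form. Its probe (chr17:35107117-35107176, mm9) read 6.22, 7.16 and 7.36 in the control mice and 8.60, 7.45 and 8.58 in the TCE mice. All 3 TCE mice were above all control mice, but TCE mouse 2 was only 0.09 above control mouse 3. The means were 6.91 ± 0.61 and 8.21 ± 0.66 (SD, n = 3 each). The difference was 1.30 ± 0.42 (log2, SE), or 2.46-fold, with a 95% interval of 0.29 to 2.31. The unadjusted p was 0.0197 and the adjusted p by limma was 0.187, so Hspa1a met the fold criterion and not the p criterion. Its GAAGATTC match is the one shown above. With the slide as a block, which leaves control mouse 1 without weight in the difference, the difference was 0.95 with an adjusted p of 0.336. The unadjusted p by limma was then 0.0544. By the methods' t-test the unadjusted p of Hspa1a was 0.066. It was also above 0.05 by limma without control mouse 1, without TCE mouse 1 and without TCE mouse 3.

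Hspa8 encodes the constitutive form, HSC70, which also uncoats clathrin vesicles and delivers proteins to lysosomes. It had 3 probes along chromosome 9. The brightest (chr9:40613223-40613282, mm9) read 16.46, 16.77 and 16.97 in the control mice and 16.93, 15.65 and 16.89 in the TCE mice. TCE mice 1 and 3 lay inside the control range, and TCE mouse 2 lay below all other mice. The difference was -0.24 ± 0.37 (log2, SE, n = 3 per group), with a 95% interval of -1.12 to 0.64 and an adjusted p by limma of 0.773. Without TCE mouse 2 it was 0.18, so the sign of the difference rested on that mouse.

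The other two Hspa8 probes did not show the low value of TCE mouse 2. The second probe (chr9:40612755-40613050, mm9) read 15.55, 15.34 and 15.71 in the control mice and 15.72, 15.58 and 15.76 in the TCE mice, a difference of 0.15 ± 0.14. The third (chr9:40611142-40611201, mm9) gave a difference of 0.07 ± 0.14, with control means of 13.50 ± 0.16 and TCE means of 13.57 ± 0.15 (SD, n = 3 each). The groups overlapped at both probes, and the adjusted p by limma was 0.610 and 0.833. TCE mouse 2 differed from the mean of the other two TCE mice by -1.26 at the brightest probe and by -0.16 and -0.18 at the others, which end 232 and 2081 bases before the end of the brightest. The probes therefore disagreed about TCE mouse 2, and the cause was not tested.

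**Figure D2:**
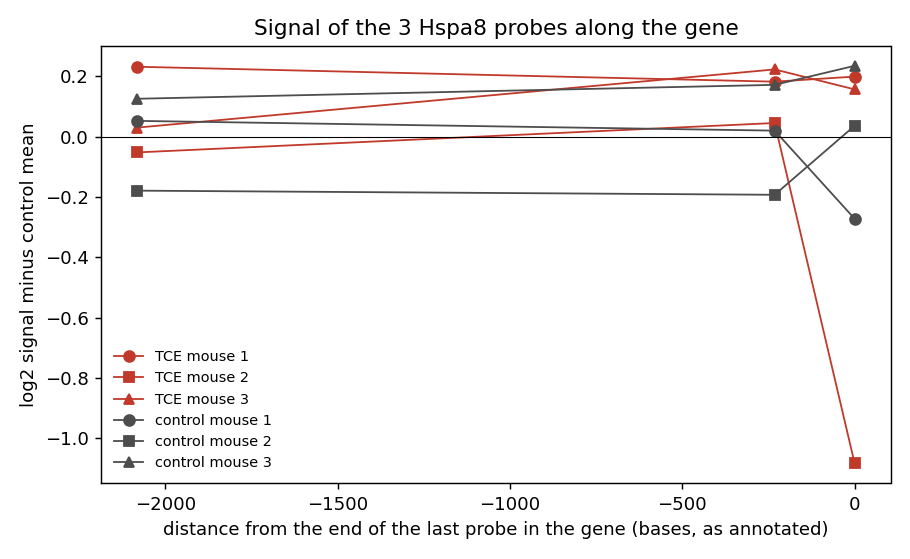
Level of Hspa8 at its 3 probes in each mouse, as the log2 difference from the control mean of the same probe (vertical axis), against the distance in bases from the end of the brightest probe (horizontal axis). Points are single mice of both groups, and lines join the probes of 1 mouse. At the brightest probe TCE mouse 2 lies at -1.08, and at the probes 232 and 2081 bases away it lies within the spread of the other mice.

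The cytosolic HSP90 proteins hold kinases and steroid receptors in a state ready for activation, and both genes were measured. Hsp90aa1, the more inducible form, had 1 probe (chr12:111929248-111929307, mm9), which read 13.42, 13.47 and 14.18 in the control mice and 13.53, 11.99 and 13.74 in the TCE mice. The groups overlapped, and TCE mouse 2 lay more than 1 log2 unit below all others. The difference was -0.60 ± 0.49 (log2, SE, n = 3 per group), with an interval of -1.78 to 0.57 and an adjusted p by limma of 0.569. Without TCE mouse 2 it was -0.05, so this value rested on that mouse as well. With 1 probe it cannot be said whether the rest of the transcript was also low in TCE mouse 2.

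Hsp90ab1, the constitutive form, was at a similar level in both groups. Its probe (chr17:45704788-45704847, mm9) read 15.71, 15.76 and 16.04 in the control mice and 15.86, 15.68 and 15.89 in the TCE mice. The difference was -0.03 ± 0.14 (log2, SE, n = 3 per group), with an interval of -0.36 to 0.30 and an adjusted p by limma of 0.943. TCE mouse 2 was the lowest of all 6 mice, by 0.02, and control mouse 3 was the highest.

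Hsph1 encodes HSP110, which exchanges the nucleotide of HSP70 and helps it to take apart aggregates. It had 2 probes on chromosome 5. The brighter (chr5:150419744-150419803, mm9) read 11.98, 11.91 and 12.79 in the control mice and 12.43, 12.87 and 12.58 in the TCE mice. Control mouse 3 stood inside the TCE range, and the other two control mice stood below all TCE mice. The difference was 0.40 ± 0.27 (log2, SE, n = 3 per group), with an interval of -0.24 to 1.04 and an adjusted p by limma of 0.481. The dimmer probe (chr5:150420110-150420169, mm9) read 10.42, 10.18 and 11.22 in the control mice and 10.86, 11.05 and 10.93 in the TCE mice. It gave the same picture, with a difference of 0.34 ± 0.27 and control mouse 3 the highest of all 6 mice.

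The small heat shock proteins HSPB1 and HSPB8 hold unfolded proteins in a soluble state without ATP, and HSPB1 also binds actin filaments while HSPB8 works with BAG3 in selective autophagy. Hspb1 (chr5:136365366-136365425, mm9) read 11.96, 11.97 and 13.13 in the control mice and 13.47, 13.61 and 13.43 in the TCE mice. All TCE mice were above all control mice and lay within 0.18 of each other, whereas control mouse 3 was more than 1 log2 unit above the other two controls. The means were 12.35 ± 0.67 and 13.50 ± 0.10 (SD, n = 3 each). The difference was 1.15 ± 0.32 (log2, SE), or 2.22-fold, with an interval of 0.37 to 1.93, an unadjusted p of 0.0109 and an adjusted p by limma of 0.146. Without control mouse 3 the difference was 1.54 ± 0.13 and passed the threshold with an adjusted p of 0.0211, as did 0.76% of all genes in that fit. With all mice included Hspb1 was not called. Among the fits that left out a mouse, it was called only in the fit without control mouse 3. Over all alternatives tried, the adjusted p ran from 0.0211 to 0.375 and the difference from 0.95 to 1.54. As all TCE mice were above all control mice, leaving out a mouse could not reverse the direction. With the slide as a block the difference was 0.95 with an adjusted p of 0.297.

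Hspb8 (chr5:116859063-116859122, mm9) was the member with the smallest p. It read 13.00, 12.89 and 12.82 in the control mice and 13.96, 13.58 and 13.58 in the TCE mice. The lowest TCE mouse was 0.58 above the highest control mouse, and control mouse 3 was here the lowest of the controls. The means were 12.90 ± 0.09 and 13.71 ± 0.22 (SD, n = 3 each). The difference was 0.80 ± 0.15 (log2, SE), or 1.74-fold, with an interval of 0.45 to 1.15, an unadjusted p of 0.00126 and an adjusted p by limma of 0.0573. The change was below 2-fold, so that it could not pass the fold criterion. The adjusted p ran from 0.0262 to 0.202 over the alternatives tried and the difference from 0.67 to 0.87, with 0.85 and an adjusted p of 0.127 for the slide as a block.

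Dnajb1 encodes HSP40, the J-domain partner that brings clients to HSP70 and starts its ATPase cycle. Its probe (chr8:86135660-86135719, mm9) read 12.83, 12.76 and 13.08 in the control mice and 13.01, 13.42 and 13.18 in the TCE mice. Control mouse 3 stood above TCE mouse 1, and otherwise the TCE mice were the higher. The difference was 0.31 ± 0.16 (log2, SE, n = 3 per group), with an interval of -0.06 to 0.69 and an adjusted p by limma of 0.353.

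**Figure D3:**
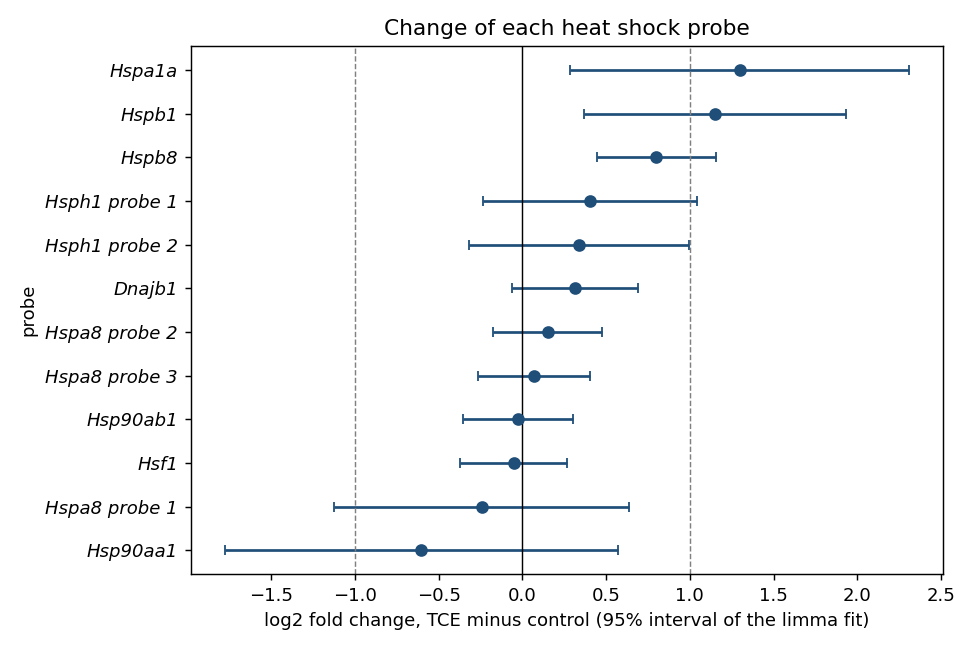
Difference between TCE and control mice for each of the 12 heat shock probes, in log2 units on the horizontal axis, with the 95% interval of the limma fit as bars (n = 3 mice per group) and dashed lines at a 2-fold change. The intervals of Hspa1a, Hspb1 and Hspb8 lie above 0 and those of the other 9 probes include 0.

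The spread between control mice had a shared shape in these genes. Control mouse 3 was the highest control on 11 of the 12 probes, whereas it was the highest control on 35.6% of all probes, and the exception was Hspb8. TCE mouse 2 was the lowest TCE mouse on 8 of the 12, against 28.5% of all probes, and the highest on 4, against 44.8% of all probes. The probes are not independent of each other, as several belong to 1 gene and all 12 come from the same 6 animals. Without control mouse 3, the TCE mice were all above the control mice in 5 of the 9 genes, with Hsph1 and Dnajb1 in addition, against 22% of all genes in that fit. The differences were then 0.69 in Hsph1 (adjusted p by limma 0.198) and 0.41 in Dnajb1 (adjusted p 0.355). Leaving out a mouse can only keep or raise such a count. Control mouse 3 was the highest control on most of these probes, and less often over all probes. The higher count and its distance from 22% therefore follow in part from the choice of that mouse and are no further evidence of a rise. What set control mouse 3 higher was not tested.

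The rest of the chaperone system was read from 9 lists of other chaperone genes, in which 83 of 94 listed genes were detected. None of the 83 passed the threshold or had an adjusted p of 0.05 or less, and the lowest adjusted p by limma was 0.0622. At an unadjusted p of 0.05 or less there were 14 genes (16.9%), 10 higher and 4 lower in TCE mice, against the 19.1% of all genes. The groups did not overlap in 24 genes (28.9%), against 27.9% of all genes. Both shares are near those of all genes. The median difference of the 83 genes was 0.05, with 49 above 0 and 34 below.

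In the HSP70 and HSP110 family, 5 other genes were detected and the median difference was 0.12. Hspa2, an HSP70 best known from the testis, read 6.98, 6.92 and 7.06 in the control mice and 8.83, 8.34 and 7.56 in the TCE mice. All TCE mice were above all control mice, and TCE mouse 3 was the closest to them. The difference was 1.26 ± 0.31 (log2, SE, n = 3 per group), with an adjusted p by limma of 0.113, and it was the one difference of 2-fold or more among the 83 genes. Without TCE mouse 3 it was 1.60 with an adjusted p of 0.0340, past the threshold, as were 154 of 13291 genes in that fit. Among the fits that left out a mouse, Hspa2 was called only in this one, which dropped the TCE mouse closest to the controls. Hspa4l, a relative of Hsph1, differed by 0.53 (adjusted p 0.368).

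Of the J-domain co-chaperones, 15 were detected, of which 4 were higher and 2 lower at an unadjusted p of 0.05 or less, with a median difference of 0.09. Dnajc2, which works at the ribosome, read 8.39, 8.17 and 8.39 in the control mice and 7.12, 7.07 and 7.91 in the TCE mice. The TCE mice were all below the control mice, and the difference was -0.95 ± 0.24 (adjusted p by limma 0.122). Without TCE mouse 3 it was -1.22 with an adjusted p of 0.0329, also past the threshold, as were 154 of 13291 genes in that fit. That mouse was again the TCE mouse closest to the controls, and Dnajc2 was called in no other fit that left out a mouse. Dnajb5 differed by -0.56 (adjusted p 0.247).

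Among 18 HSP90 co-chaperones the median difference was -0.01, with 1 gene higher and 1 lower at an unadjusted p of 0.05 or less. Chordc1, which binds HSP90, read 10.68, 10.61 and 11.00 in the control mice and 11.33, 11.36 and 11.20 in the TCE mice. The groups did not overlap, control mouse 3 was again the highest control, and the difference was 0.53 ± 0.14 (adjusted p by limma 0.132). Ppp5c, a phosphatase that acts on HSP90 complexes, differed by 0.42 (adjusted p 0.358).

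The other small heat shock proteins gave 6 detected genes with a median difference of 0.00. Hspb6, abundant in muscle, read 10.47, 10.55 and 10.62 in the control mice and 10.87, 11.51 and 11.07 in the TCE mice. The groups did not overlap and the difference was 0.61 ± 0.18 (adjusted p by limma 0.163). Cryaa, a crystallin, differed by -0.53 (adjusted p 0.326). The summed smooth muscle markers were 11.03 to 11.30 in control mice and 11.01 to 11.86 in TCE mice, with 3 of the 5 genes detected and none past the threshold. The sum was carried by Tagln, which differed by 0.40 (adjusted p by limma 0.460), whereas Acta2 differed by -0.24 (adjusted p 0.689). Cnn1 was well above background in all control mice and in no TCE mouse. Its mean was at least 1.83-fold lower in TCE mice, but with an adjusted p by limma of 0.114. For this bound each TCE mouse was given the higher of its own signal and the lowest signal well above background on its array. The paper's qPCR of Cnn1 did not show this fall. The part of the smooth muscle markers in the small heat shock protein values was not tested.

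The 7 detected genes of the BAG family and nucleotide exchange factors had a median difference of 0.11, and none had an unadjusted p of 0.05 or less. Bag3, the partner of HSPB8 and a known HSF1 target, read 11.73, 11.75 and 11.76 in the control mice and 12.05, 11.49 and 12.18 in the TCE mice. TCE mouse 2 lay below the control mice and the other two lay above them, so the groups overlapped. The difference was 0.16 ± 0.19 (adjusted p by limma 0.713). Hspbp1, a nucleotide exchange factor of HSP70, differed by -0.28 (adjusted p 0.567).

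All 4 detected genes of the list of heat shock factors and their regulators had differences below 0, with a median of -0.18, and none had an unadjusted p of 0.05 or less. Hsbp1, which encodes a small protein that binds HSF1, read 12.24, 12.16 and 11.99 in the control mice and 12.53 and 12.44 in TCE mice 1 and 3, and TCE mouse 2 differed from the mean of the other two TCE mice by -1.78. Its relative Hsbp1l1 read 8.07, 8.35 and 8.15 in the control mice and 8.19, 5.65 and 8.59 in the TCE mice. In both genes TCE mouse 2 was more than 1 log2 unit below all others. The differences were -0.24 (adjusted p by limma 0.834) and -0.71 (adjusted p 0.660), and without TCE mouse 2 they were 0.35 and 0.20. These were the 2 genes of the 83 in which any mouse lay at least 1 log2 unit below all others.

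The chaperonin TRiC folds actin and tubulin, and prefoldin passes clients to it. Their 13 detected genes had a median difference of 0.05 and none had an unadjusted p of 0.05 or less. Cct5, a TRiC subunit, had the largest difference, -0.41 (adjusted p by limma 0.505), and read 13.21 in TCE mouse 2 and 14.18 to 14.36 in the other mice. Without TCE mouse 2 it was -0.07. Cct6a, another subunit, differed by 0.27 (adjusted p 0.461).

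Chaperones of other compartments were compared in the same way. The 10 mitochondrial genes had a median difference of 0.16, with 8 above 0 and 2 higher at an unadjusted p of 0.05 or less. Grpel2, a nucleotide exchange factor of mitochondrial HSP70, read 8.92, 8.93 and 8.42 in the control mice and 9.68, 9.76 and 9.56 in the TCE mice. The groups did not overlap, and its difference of 0.91 ± 0.17 had the lowest adjusted p of the 83 genes, 0.0622. Its relative Grpel1 differed by 0.30 (adjusted p by limma 0.246). In the endoplasmic reticulum the 5 genes had a median difference of -0.20, with 1 gene higher and 1 lower at an unadjusted p of 0.05 or less. Hyou1, the ER form of HSP110, differed by -0.71 (adjusted p 0.172), and Hsp90b1, the ER form of HSP90, by -0.68 (adjusted p 0.308), or -0.33 without TCE mouse 2.

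**Figure D4:**
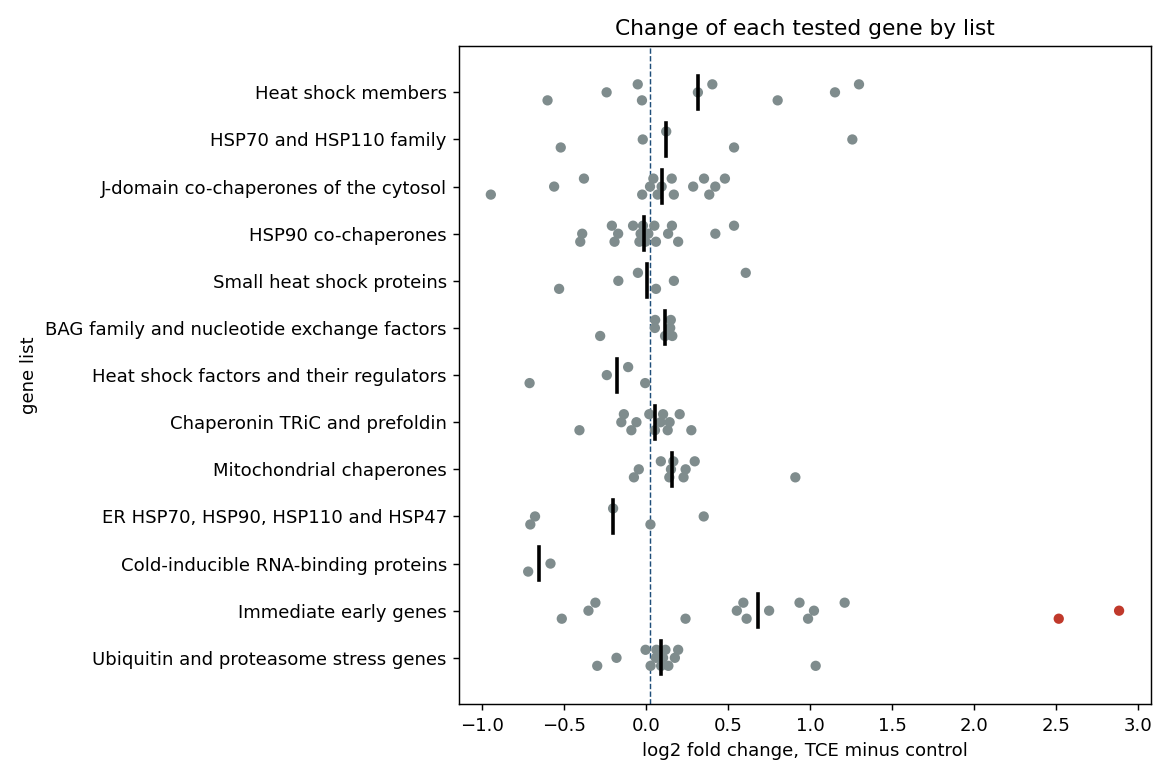
Difference between TCE and control mice (log2, horizontal axis) for the detected genes of each list, with 1 row per list, 1 point per gene, red if past the threshold, and a black line at each list's median. The dashed line is the median of all genes tested, 0.02, and the top row holds the 9 heat shock genes. Of the 9 chaperone lists none holds a gene past the threshold, and the list of immediate early genes holds 2.

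Other stress genes were read in the same livers. The cold-inducible RNA-binding proteins Cirbp and Rbm3 are known to fall with warming. Both were lower in all TCE mice than in all control mice, as were 10.8% of all genes. Cirbp read 10.39, 10.47 and 10.01 in the control mice and 9.46, 9.74 and 9.51 in the TCE mice, a difference of -0.72 ± 0.16 (adjusted p by limma 0.0993). Rbm3 read 11.46, 11.41 and 11.53 in the control mice and 10.69, 11.22 and 10.74 in the TCE mice, a difference of -0.58 ± 0.17 (adjusted p 0.150). Neither passed the threshold, and the part of temperature in these values was not tested.

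Of 17 immediate early genes, whose transcription rises within minutes of many stimuli, 14 were detected. Jun, a subunit of the AP-1 transcription factor, read 10.02, 9.84 and 10.89 in the control mice and 12.49, 13.34 and 12.46 in the TCE mice. The groups were clearly apart, and the rise of 2.52 ± 0.36 (log2, SE, n = 3 per group) had an adjusted p by limma of 0.0287. Atf3, a stress-induced transcription factor, read 6.08, 4.79 and 5.28 in the control mice, where it was well above background in 2 of 3, and 8.67, 8.54 and 7.58 in the TCE mice. It rose by 2.88 ± 0.42 with an adjusted p of 0.0296. When 1 mouse at a time was left out, Jun kept its call in 1 of 6 fits and Atf3 in 2 of 6. With the slide as a block Atf3 kept its call (3.23, adjusted p 0.0405) and Jun did not (2.40, adjusted p 0.0988). With the replicate number as a block neither did, at an adjusted p of 0.0931 for Atf3 and 0.131 for Jun. The paper's qPCR of Jun at the same dose also showed a rise, and Atf3 was not among the genes it reported by qPCR. The 2 called genes are 2 of 14, against 1.73% of all genes. At an unadjusted p of 0.05 or less, 7 of the 14 genes were higher and 2 lower, against 12% and 7.11% of all genes, and the median difference was 0.68. The list was chosen with earlier results of these data known.

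The 13 ubiquitin and proteasome stress genes had a median difference of 0.09 and none passed the threshold. Hmox1, heme oxygenase, a target of the oxidative stress response, read 10.05, 9.84 and 10.11 in the control mice and 11.68, 10.64 and 10.78 in the TCE mice. The groups did not overlap, and the difference was 1.03 ± 0.28 (adjusted p by limma 0.139). Psmd12, a proteasome subunit, read 13.05 in TCE mouse 2 and 13.92 to 14.15 in the other mice, with a difference of -0.30 (adjusted p 0.637).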

How the data were processed

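Liver RNA of 6 mice was measured on 6 1-colour arrays. The authors scanned them and read the images with Agilent Feature Extraction 10.7.1.1, and the deposited output holds an intensity for each of 62976 spots. The authors also deposited a table of group means of quantile-normalized log2 values, with gene symbols, probe positions on mm9 and 6 columns of flags, 1 per array, that were not used. Mice are numbered by the replicate number in the labels. The number in the titles is shifted by 1 from that in the names of the deposited arrays, so the number that names a mouse in the laboratory is in doubt, while its group is the same in both. Processed intensities were turned into log2 values without a pseudocount, 123 to 189 outlier spots per array were set to missing, spots of a probe were averaged and 55681 probes were quantile normalized. The group means then lay within 0.01 of the authors' log2 means for over 99% of probes.

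A probe was tested if it was well above background on every array of either group, which left 22739. The test was the two-sided moderated test of limma (version 3.58.1, R 4.3.3), with no factor other than group and Benjamini-Hochberg adjustment, with the data.table package (version 1.17.8). The number of arrays, 3 per group, limits the precision. The labels describe 1 liver per mouse, and p-values measure the spread between mice. Same-numbered mice did not deviate together (r of 0.0897, 0.00674 and -0.0917), so they were not paired.

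The heat shock genes, the lists and the rule for named genes were chosen with earlier results of these data known. All members were named, and from each list the genes past the threshold or otherwise the 2 with the largest change. Alternatives were the 75th percentile and normexp (offset 50) in place of the main normalization and background, other filters, outlier spots retained, slide or replicate number as a block, a variance trend, the methods' t-test and leaving out each mouse. The test was checked on simulated data. Promoter sequences are those of RefSeq.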

Additional observations from a re-analysis of the deposited data

How the results depend on the processing

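The positive differences of Hspa1a, Hspb1, Hspb8, Hsph1 and Dnajb1 and the negative difference of Hsp90aa1 kept their sign under all alternatives tried. Many of these alternatives could not change a sign. The other filters, the replicate block, the variance trend and the t-test left the fitted differences as they were. Where all TCE mice were above all control mice (Hspa1a, Hspb1 and Hspb8), leaving out a mouse could not reverse the difference. With 0 heat shock genes past the threshold in the main analysis, 1 (Hspb1) was past it with the methods' t-test without adjustment, and 0 to 1 when 1 mouse was left out. At an adjusted p of 0.05 alone there were 0, against 1 with the 75th percentile normalization, 1 with normexp, 1 with a variance trend, 2 with the methods' t-test without adjustment, and 0 to 1 when 1 mouse was left out. Genes with all TCE mice above all control mice numbered 3, and 3 to 5 when 1 mouse was left out. Other chaperone genes past the threshold numbered 0, against 1 (Hspa2) with the methods' t-test without adjustment and 0 to 2 when 1 mouse was left out. Immediate early, cold-inducible and ubiquitin genes past the threshold numbered 2, against 0 without a filter on dim probes, 1 with only probes well above background on all 6 arrays, 1 with the slide as a block, 4 with the methods' t-test without adjustment, 0 after its adjustment, and 0 to 1 when 1 mouse was left out.

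The sign changed for Hsf1, at 0.0084 with the 75th percentile normalization, 0.037 without control mouse 3 and 0.0091 without TCE mouse 2 (range -0.11 to 0.037 when 1 mouse was left out), for Hspa8, at 0.18 without TCE mouse 2 (range -0.46 to 0.18), and for Hsp90ab1, at 0.073 without control mouse 3 and 0.036 without TCE mouse 2 (range -0.090 to 0.073). The causes were not tested.

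Over all genes, 230 passed the threshold, against 58 without the filter, 128 with the slide as a block, 411 with the methods' t-test without adjustment, 20 after its adjustment and 91 to 160 when 1 mouse was left out. With the replicate number as a block, 45 genes passed, of which 0 were heat shock genes and 0 were immediate early, cold-inducible or ubiquitin genes, against 2 without it.

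With 3 mice per group, the standard errors of 0.13 to 0.49 among the heat shock genes leave changes of less than 2-fold undetermined in several of them. Larger changes were also undetermined in some. The intervals of Hspa8 (brightest probe) and Hsp90aa1 held both 0 and falls of more than 2-fold. That of Hsph1 (brighter probe) held both 0 and rises of more than 2-fold. The intervals were widest in Hsp90aa1 and Hspa1a. Probes of a gene can differ, as Hspa8 showed, and 7 of the 9 genes had 1 probe.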
